A study of Mus musculus with 4 samples.

Results

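The genes described here are targets of NRF2, the transcription factor that controls much of the defence against oxidants, together with enzymes that supply NADPH, the reducing agent of that defence. They were chosen by name from a list of 33 symbols, and 32 of them were matched to a probe set of 1 gene out of 19938 genes in all. G6pdx, which starts the pentose phosphate pathway, had no matched probe set and was not analysed here. All 32 were bright enough on at least 1 array to enter the tests over 12471 genes. Cbr3 reached that level only on the wild-type arrays.

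Nasal mucosa, lifted off the septum and turbinates of 8-week-old mice, was measured as total RNA on 4 Affymetrix whole-transcript arrays. The groups were Duox2-/- mice given flagellin, Duox2-/- mice given PBS, wild-type (Duox2+/+) mice given flagellin and wild-type mice given PBS, with 1 array each. All mice carried the strain label C56BL/6. Flagellin, the protein of bacterial flagella, was given at 5 ug/ml for 4 h, and the protocol gives 25 ul of solution into each nostril. The sources used here do not give how the Duox2 allele was made, nor how many mice went into each array.

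In resting cells the KEAP1 protein holds NRF2 and marks it for destruction through a CUL3 ubiquitin ligase. Oxidants and electrophiles modify cysteines of KEAP1, NRF2 then accumulates, pairs with a small MAF protein and binds antioxidant response elements in its targets. These targets make glutathione, reduce quinones and carbonyls, store iron and supply NADPH. DUOX2 itself consumes NADPH to release hydrogen peroxide at epithelial surfaces.

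Promoter windows are shown for members that carry a match to a response element, since most members differed in 1 direction between the genotypes. RefSeq windows of GRCm38.p6, which run from 250 bases before to 50 bases after a transcript start, were found for 28 of the 32 members. The core of the antioxidant response element, TGACNNNGC on either strand, lay in a window of 8 of these 28 genes, against 14 percent of 27025 genes. The 8 were Nfe2l2, Gclm, Txnrd1, Srxn1, Pgd, Me1, Abcc4 and Mgst1. The sequences below run 5′ to 3′ along the gene, with the match in capitals. For Gclm, Txnrd1 and Mgst1 the match reads on the opposite strand.
Gclm, chr3:122245363-122245451, plus strand: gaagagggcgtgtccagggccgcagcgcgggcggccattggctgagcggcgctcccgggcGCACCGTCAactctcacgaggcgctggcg
Txnrd1, chr10:82859054-82859142, plus strand: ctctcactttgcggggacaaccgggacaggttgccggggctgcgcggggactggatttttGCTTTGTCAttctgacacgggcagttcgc
Mgst1, chr6:138140411-138140499, plus strand: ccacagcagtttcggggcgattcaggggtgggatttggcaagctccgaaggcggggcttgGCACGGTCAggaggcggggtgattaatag
Me1, chr9:86695892-86695980, minus strand: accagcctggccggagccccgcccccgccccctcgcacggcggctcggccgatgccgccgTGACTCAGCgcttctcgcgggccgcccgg
The match of Me1 also spells the AP-1 motif TGANTCA, which lay in windows of 4 of the 28 members (Srxn1, Me1, Aox1 and Osgin1) and of 8.97 percent of all genes. Slc7a11 is shown because it had the largest flagellin difference of the members. Its window held no antioxidant response element core but 2 copies of TGATGNAA, the element read by ATF4 in the response to amino acid shortage. That motif, on either strand, lay in 2 of the 28 members' windows, those of Slc7a11 and Trib3, and in 4.51 percent of all genes, and the second copy in Slc7a11 reads on the opposite strand.
Slc7a11, chr3:50443633-50443739, minus strand: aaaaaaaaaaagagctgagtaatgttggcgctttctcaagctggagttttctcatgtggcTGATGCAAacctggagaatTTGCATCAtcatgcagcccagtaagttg
A match is a description of letters in these windows and not a test of binding. None of the 4 members that passed the test for genotype had the antioxidant response element core in its window, which draws nothing about NRF2 at those genes.

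Duox2 had log2 values of 5.50 and 5.23 in the flagellin and PBS arrays labelled Duox2-/-, against 5.12 and 4.95 in the wild-type flagellin and PBS arrays. It was therefore not lower where the label says it is altered. Which bases of the gene the allele changes is unknown, so the probe set cannot check the labels, and the arrays are called by them. The values are log2 intensities, and their number, 1 array a group, limits the precision of every value. The interquartile range of all probe sets was 2.43 and 2.54 in the flagellin and PBS arrays labelled Duox2-/-, against 2.73 and 2.79 in the wild-type flagellin and PBS arrays. The spread of values was thus narrower under the Duox2-/- label, and medians over all genes and renormalized values are given beside those of the members.

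Comparing the arrays labelled Duox2-/- with wild type asks how the oxidant defence of the mucosa differed when the peroxide-producing oxidase was altered. Most NRF2 targets and NADPH-supplying enzymes were at lower levels in the arrays labelled Duox2-/-, whether flagellin or PBS had been given. The flagellin pair and the PBS pair share no array. Of the 32 members 29 were lower in both pairs, against 47 percent of all genes tested and 32.8 percent of all genes with no filter. After flagellin 29 were below 0, against 66.8 percent of all genes, and 3 above 0, against 33.2 percent. After PBS 31 were below 0, against 57.7 percent, and 1 above 0, against 42.3 percent. With the arrays centred on their medians 31 were lower in both, against 60.9 percent of all genes, and after quantile normalization 26, against 36.7 percent of all genes. In the deposited values the same number, 29 members, had both values under the Duox2-/- label below both wild-type values, as did 39.2 percent of all genes tested. The median log2 difference of the members, Duox2-/- minus wild type, was -0.41 after flagellin and -0.35 after PBS. Over all genes tested it was -0.12 after flagellin and -0.04 after PBS. Quantile normalization brought the medians of all genes to -0.03 and -0.02 and those of the members to -0.25 after flagellin and -0.31 after PBS.

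**Figure D1:**
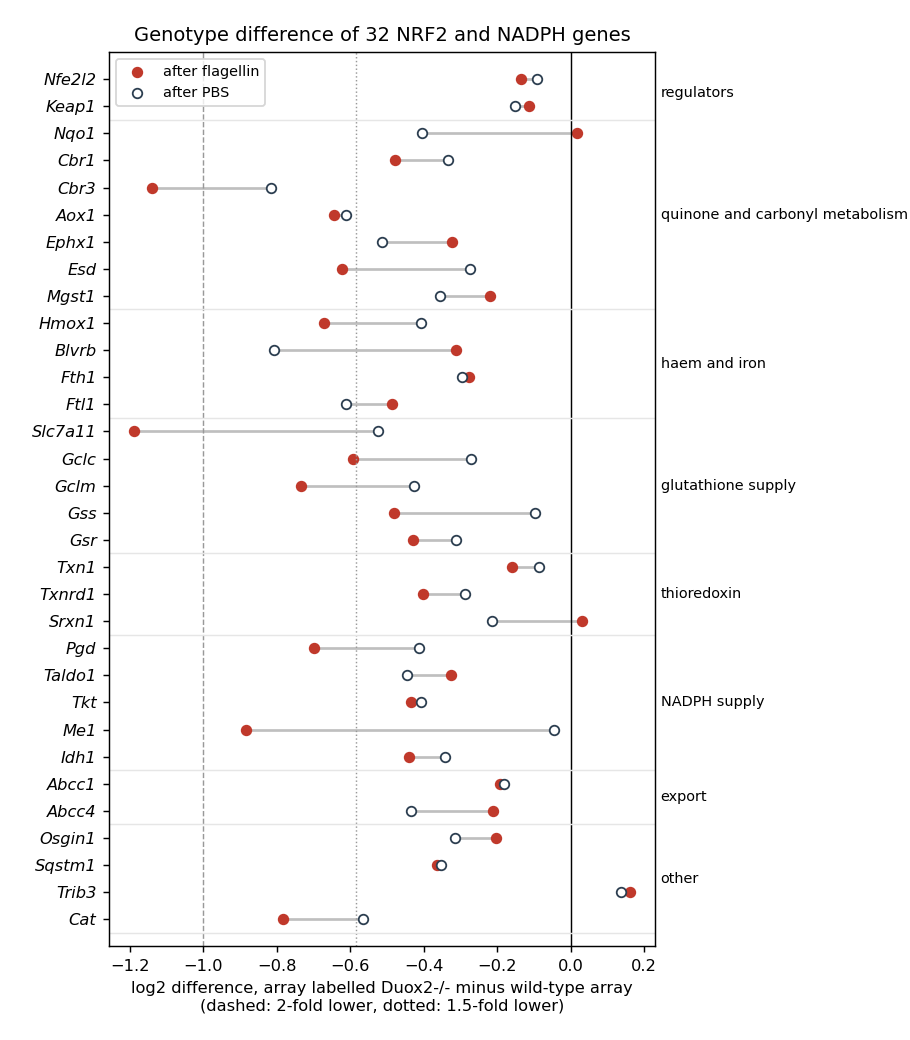
Log2 difference, array labelled Duox2-/- minus wild-type array, for each of the 32 members after flagellin (filled) and after PBS (open), grouped by role; 1 array per group, so there are no error bars. All but Trib3 lie left of 0 after PBS, and Cbr3 and Slc7a11 lie beyond the 2-fold line after flagellin.

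At a size of 2-fold the counts were small. After flagellin 2 of 32 members, Slc7a11 and Cbr3, were at least 2-fold lower in the array labelled Duox2-/-, against 1.65 percent of all genes. Without Cbr3, whose value of 5.69 on that array is under the bright level, the count was 1 of 31. None was at least 2-fold higher there, against 0.353 percent of all genes. After PBS none was past 2-fold, against 0.281 percent of all genes lower and 1.13 percent higher. At 1.5-fold 10 members were lower after flagellin, against 6.54 percent of all genes, and 4 after PBS, against 2 percent. Without Cbr3 these counts were 9 and 3 of 31. None was 1.5-fold higher in either pair, against 4.57 percent of all genes after flagellin and 3.12 percent after PBS. Aox1 was at least 1.5-fold lower in both pairs, as were 1.03 percent of all genes. Cbr3 was too, but it entered the test only through the wild-type arrays.

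An additive limma model gave the only test across all genes that these arrays allow. It fits a genotype shift common to both treatments, and the difference between the 2 pairs is its error, with 1 residual degree of freedom. Limma weighs that error with a prior variance pooled over all genes tested, worth 7.48 degrees of freedom. Each SE and p-value of the fit therefore rests mostly on the pooled prior. The model called 4 members lower at an adjusted p of at most 0.05 (limma, Benjamini-Hochberg over 12471 genes), where 1.98 percent of all genes were lowered. It called none of them higher, against 2.39 percent of all genes raised. The 4 were Cbr3, Aox1, Slc7a11 and Cat, and 3 of 31 remain without Cbr3, which was bright only on the wild-type arrays. At an unadjusted p under 0.05, 21 of the 32 members were lower, against 13.9 percent of all genes, and none higher; 23.2 percent of all genes passed in either direction. The calls depend on the normalization. After centring the arrays on their medians 3 members passed, where 125 of all 12471 genes were lowered. After quantile normalization 1 passed, Cbr3, where 135 of all genes were lowered. Without Cbr3 no member passed after quantile normalization. Under cyclic loess 0 passed, where 15 members had an unadjusted p under 0.05 (limma) and were lower, against 10.4 percent of all genes. The calls also grew to 8 with no filter on low values, where 477 of all 19938 genes were lowered. They grew to 10 with a prior variance that follows the level, where 608 of all 12471 genes were lowered. The main fit lowered 247 of all 12471 genes, so the calls over all genes grew too. Whether arrays stand for separate animals is not stated. The p-values thus measure only the spread between these 4 arrays, mostly as pooled over all genes, and that spread may be technical.

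The regulators differed little. Nfe2l2, which encodes NRF2, had log2 values of 9.28 and 9.33 in the flagellin and PBS arrays labelled Duox2-/-, against 9.42 and 9.42 in the wild-type flagellin and PBS arrays. Keap1, its inhibitor, had 7.82 and 7.84 in the arrays labelled Duox2-/-, against 7.93 and 7.99 in wild type. Both differences after flagellin changed sign under cyclic loess and quantile normalization, so no direction can be given for these transcripts.

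Among enzymes that reduce or oxidise quinones and carbonyls, Cbr3 and Aox1 differed in both pairs by at least 1.5-fold. Cbr3, a carbonyl reductase, had log2 values of 5.69 and 6.01 in the flagellin and PBS arrays labelled Duox2-/-, against 6.83 and 6.82 in the wild-type flagellin and PBS arrays. Both values under the Duox2-/- label lay below both wild-type values and under 6.52, the level taken as bright enough. The genotype shift was -0.98 ± 0.14 (SE of the fit). Since Cbr3 entered the filtered test only through the wild-type arrays, that test's p is not given. In the limma fit over all 19938 genes with no filter its adjusted p was 0.0101, the lowest of its alternatives. In that fit 29.5 percent of all genes had an unadjusted p under 0.05 (limma). Under cyclic loess Cbr3 did not pass, and the size of a difference against values under the bright level is uncertain. Aox1, an aldehyde oxidase, had 6.73 and 7.08 in the arrays labelled Duox2-/-, against 7.37 and 7.69 in wild type. Its shift was -0.63 ± 0.13 (SE, adjusted p = 0.0380, limma, 0.00927 to 0.0992 over the alternatives). Aox1 too did not overlap between the genotypes, as 39.2 percent of all genes did not in this direction. Cbr1, also a carbonyl reductase, had 8.72 and 9.02 in the arrays labelled Duox2-/-, against 9.20 and 9.35 in wild type, and missed the threshold (adjusted p = 0.109, limma).

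Nqo1, the NADPH-dependent quinone reductase that is often read as the marker of NRF2 activity, did not share this in both pairs. It had 9.996 and 9.86 in the flagellin and PBS arrays labelled Duox2-/-, against 9.98 and 10.27 in the wild-type flagellin and PBS arrays. The difference was 0.02 after flagellin and -0.40 after PBS, and the wild-type flagellin value lay between those under the Duox2-/- label. Ephx1, the microsomal epoxide hydrolase, differed by -0.32 after flagellin and -0.51 after PBS. Mgst1, a membrane glutathione transferase, differed by -0.22 and -0.36 in the same pairs. Esd, an esterase that also releases glutathione from its formaldehyde adduct, differed by -0.62 after flagellin and -0.27 after PBS. A second probe set of Esd differed by -0.57 after flagellin and 0.11 after PBS, so its direction after PBS is uncertain. Of these 7 genes 6 were lower in both pairs, against 47 percent of all genes tested. Cbr3 and Aox1 passed the test, where 1.98 percent of all genes were lowered, and Cbr3 was bright only on the wild-type arrays.

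**Figure D2:**
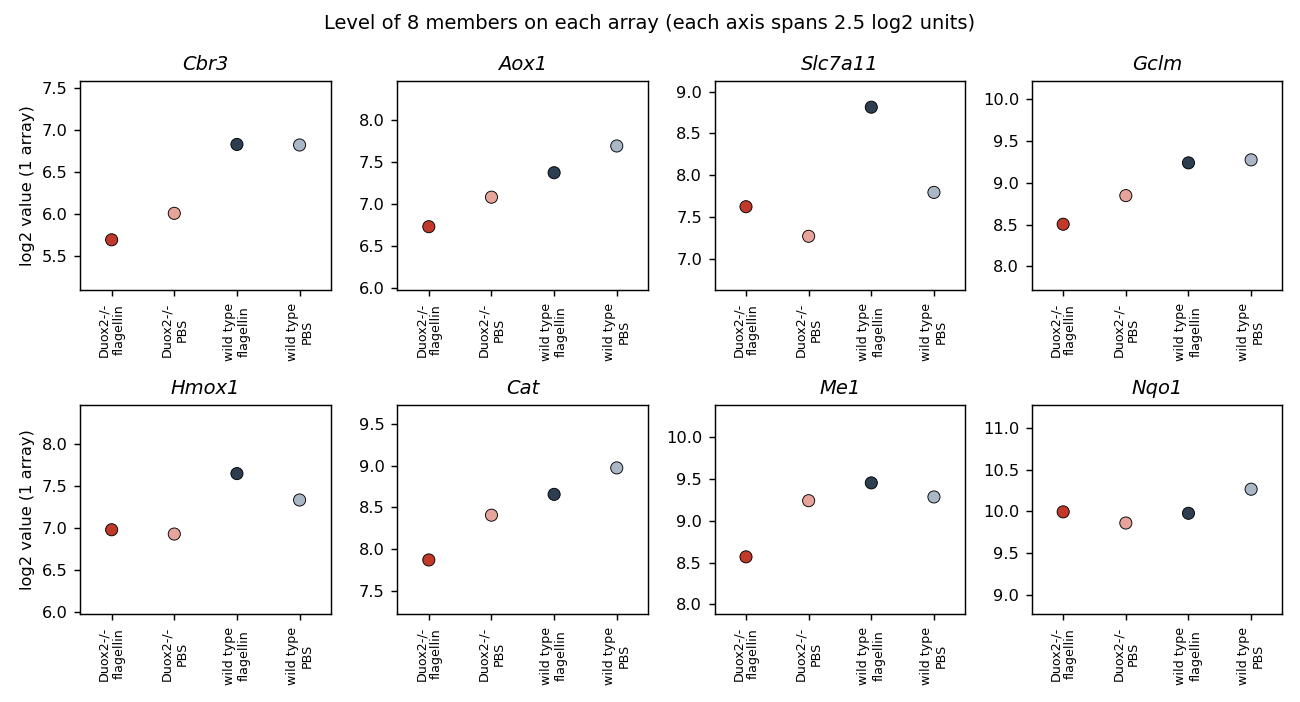
Log2 value of 8 members on each of the 4 arrays, flagellin and PBS arrays labelled Duox2-/- first, with 1 point per array and axes of equal span. Cbr3, Aox1, Slc7a11, Gclm, Hmox1 and Cat lie lower on both arrays labelled Duox2-/- than on both wild-type arrays, while Me1 is far lower on 1 array than on the other 3 and Nqo1 overlaps.

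Genes that handle haem and iron were lower in both pairs, 4 of 4, against 47 percent of all genes tested, and none passed the test. Hmox1, the haem oxygenase, had log2 values of 6.98 and 6.93 in the flagellin and PBS arrays labelled Duox2-/-, against 7.65 and 7.33 in the wild-type flagellin and PBS arrays (adjusted p = 0.0607, limma). Ftl1, the ferritin light chain, had 9.82 and 9.87 in the arrays labelled Duox2-/-, against 10.31 and 10.48 in wild type (adjusted p = 0.0523, limma). Neither gene overlapped between the genotypes, which also held in this direction for 39.2 percent of all genes. Fth1, the ferritin heavy chain, differed by -0.28 after flagellin and -0.29 after PBS. Blvrb, which reduces biliverdin and flavins, had 7.80 and 7.39 in the arrays labelled Duox2-/-, against 8.11 and 8.20 in wild type, so that its difference was -0.31 after flagellin and -0.81 after PBS. Ferritin genes have near-identical copies in the genome. Of 4 further probe sets shared by Ftl1 and 2 microRNA genes, the differences ran from -0.49 to -0.38 after flagellin and from -0.61 to -0.28 after PBS.

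Genes of glutathione supply were lower in both pairs, 5 of 5, against 47 percent of all genes tested. Of these 5 genes 1 passed the test, where 1.98 percent of all genes were lowered. Slc7a11, the cystine transporter that brings in the limiting building block of glutathione, had log2 values of 7.62 and 7.27 in the flagellin and PBS arrays labelled Duox2-/-, against 8.81 and 7.80 in the wild-type flagellin and PBS arrays. Its genotype shift was -0.86 ± 0.17 (SE, adjusted p = 0.0371, limma, 0.00428 to 0.115 over the alternatives). Gclm, the modifier subunit of glutamate-cysteine ligase, which carries out the first step of glutathione synthesis, had 8.50 and 8.85 in the arrays labelled Duox2-/-, against 9.24 and 9.27 in wild type (adjusted p = 0.0534, limma). Gclc, the catalytic subunit, had 9.64 and 9.84 in the arrays labelled Duox2-/-, against 10.23 and 10.11 in wild type. In all 3 genes both values under the Duox2-/- label lay below both wild-type values, which also held for 39.2 percent of all genes. Gss, which completes glutathione, differed by -0.48 after flagellin and -0.10 after PBS. Gsr, which regenerates reduced glutathione with NADPH, differed by -0.43 and -0.31 in the same pairs.

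None of the 3 thioredoxin genes passed the test. Txnrd1, the reductase that recharges thioredoxin with NADPH, had log2 values of 9.11 and 8.91 in the flagellin and PBS arrays labelled Duox2-/-, against 9.51 and 9.19 in the wild-type flagellin and PBS arrays. Txn1, thioredoxin itself, differed by -0.16 after flagellin and -0.09 after PBS. Srxn1, which repairs over-oxidised peroxiredoxins, differed by 0.03 after flagellin and -0.21 after PBS. Srxn1 after flagellin turned to -0.02 with median-centred arrays, as Nqo1 did to -0.04.

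Enzymes that supply NADPH were lower in both pairs, 5 of 5, against 47 percent of all genes tested. The PBS difference of Me1, 1 of the 5, was small and changed sign under cyclic loess and quantile normalization. None passed the adjusted threshold. All 5 were lower at an unadjusted p under 0.05 (limma), against 13.9 percent of all genes. Pgd, the second NADPH-forming step of the pentose phosphate pathway, had log2 values of 9.16 and 9.39 in the flagellin and PBS arrays labelled Duox2-/-, against 9.86 and 9.80 in the wild-type flagellin and PBS arrays (adjusted p = 0.0565, limma). Tkt, a transketolase of that pathway, had 8.35 and 8.53 in the arrays labelled Duox2-/-, against 8.78 and 8.94 in wild type. Taldo1, a transaldolase, differed by -0.33 after flagellin and -0.44 after PBS. Idh1, the cytosolic isocitrate dehydrogenase, differed by -0.44 and -0.34 in the same pairs. These 4 genes did not overlap between the genotypes, as 39.2 percent of all genes did not in this direction.

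Me1, the cytosolic malic enzyme and another source of NADPH, was far lower on 1 array than on the other 3. It had 8.57 and 9.24 in the flagellin and PBS arrays labelled Duox2-/-, against 9.45 and 9.28 in the wild-type flagellin and PBS arrays. Its difference between the genotypes was -0.88 after flagellin and -0.04 after PBS. The PBS difference turned to 0.02 under cyclic loess and to 0.01 after quantile normalization. A second probe set of Me1 had 8.31 and 9.08 in the arrays labelled Duox2-/-, against 9.31 and 9.14 in wild type, with the same array low.

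Neither export pump passed the test. Abcc1, which exports glutathione conjugates, differed by -0.19 after flagellin and -0.18 after PBS, and Abcc4, an exporter of organic anions, by -0.21 and -0.43. Cat, the peroxisomal enzyme that breaks down hydrogen peroxide, had log2 values of 7.87 and 8.41 in the flagellin and PBS arrays labelled Duox2-/-, against 8.66 and 8.97 in the wild-type flagellin and PBS arrays. Its genotype shift was -0.67 ± 0.13 (SE, adjusted p = 0.0360, limma, 0.00864 to 0.109 over the alternatives). Sqstm1, an autophagy adaptor that also binds KEAP1, had 9.83 and 9.82 in the arrays labelled Duox2-/-, against 10.19 and 10.17 in wild type. Osgin1, an oxidative stress-induced growth inhibitor, differed by -0.20 after flagellin and -0.32 after PBS. Trib3, a pseudokinase induced by ATF4, was the 1 member higher in both pairs, as were 22.5 percent of all genes, with 7.62 and 7.49 in the arrays labelled Duox2-/-, against 7.45 and 7.35 in wild type (adjusted p = 0.520, limma).

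**Figure D3:**
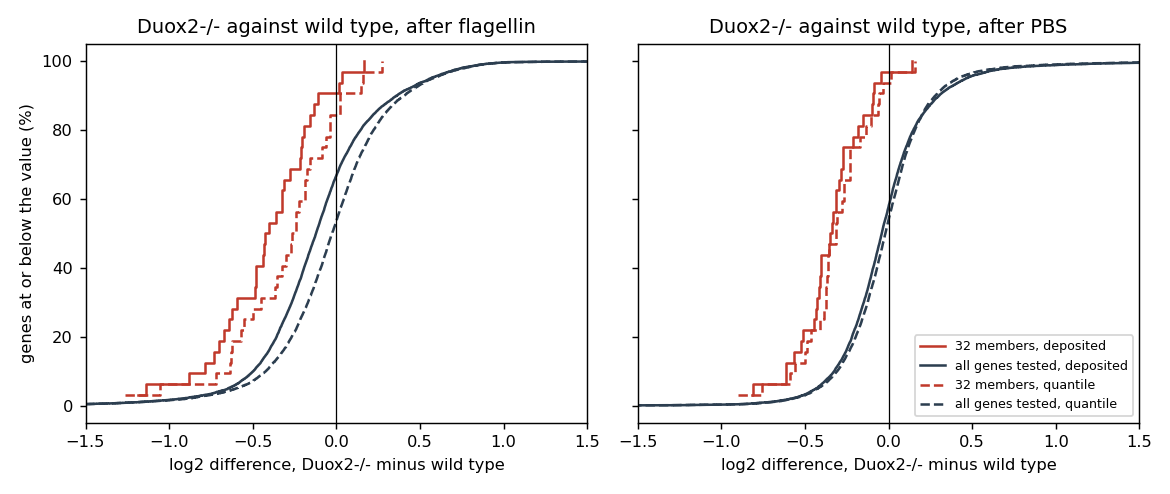
Cumulative share of genes (percent) by log2 difference, array labelled Duox2-/- minus wild-type array, for the 32 members (red) and all 12471 genes tested (dark), in the deposited values (solid) and after quantile normalization (dashed), after flagellin on the left and after PBS on the right. The members' curves lie left of those of all genes in both panels, with medians of -0.41 and -0.35 against -0.12 and -0.04 in the deposited values.

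Other genes of the pathway are given beside the members, in lists written with earlier results of these data known. In the list of 12 NRF2 regulators and related factors no transcript was past 1.5-fold in a pair of arrays and none passed the test. Their median difference was -0.07 after flagellin and -0.05 after PBS. Cul3, the scaffold of the ligase that marks NRF2, differed by -0.15 after flagellin and -0.04 after PBS. Bach1, a repressor at the same DNA elements, differed by 0.01 and 0.05. The small MAF partners Mafg and Mafk differed by -0.05 and -0.08 after flagellin and by -0.07 and -0.07 after PBS, and Maff, dim on all 4 arrays, by 0.02 and 0.32. Nfe2l1, the relative of NRF2 that controls proteasome genes, differed by -0.40 after flagellin and -0.20 after PBS.

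Further detoxification genes, 22 of 26 matched, had a median difference of -0.36 after flagellin and -0.40 after PBS. Of the 22, 17 were lower in both pairs, against 47 percent of all genes tested and 32.8 percent of all genes with no filter. Of the 18 bright enough 6 were lowered by the test, against 1.98 percent of all genes, and none raised, against 2.39 percent. Calls in these lists and in the cell type markers below are from the deposited values only. Over all genes the test lowered 247 there, against 135 after quantile normalization and 8 under cyclic loess. Whether the calls of the lists hold under those settings was not examined. Gpx2, an epithelial glutathione peroxidase, had log2 values of 7.89 and 7.94 in the flagellin and PBS arrays labelled Duox2-/-, against 9.08 and 9.09 in the wild-type flagellin and PBS arrays (shift -1.17, adjusted p = 0.00653, limma). Aox3, another aldehyde oxidase, had 9.25 and 9.77 in the arrays labelled Duox2-/-, against 10.30 and 10.70 in wild type (shift -0.99, adjusted p = 0.0121, limma). The glutathione transferase Gstp1 had 8.52 and 8.75 in the arrays labelled Duox2-/-, against 9.60 and 9.56 in wild type (shift -0.95, adjusted p = 0.0141, limma). Gstp1 has near-identical relatives that its probe set may also read. The other 3 were the transferases Gsta3 and Gsta4 and the redox-sensitive protein gene Pir, with shifts of -0.63, -0.67 and -0.68. Abcc3, an export pump, differed by -0.30 after flagellin and -0.61 after PBS. Aox4, the aldehyde oxidase whose 4 values straddle the bright level, differed by -0.72 after flagellin and 0.50 after PBS.

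Of 16 other genes of NADPH supply 9 were lower in both pairs, against 47 percent of all genes tested. The 16 genes had a median of -0.07 after flagellin and -0.12 after PBS. Among them 1 passed the test, where 1.98 percent of all genes were lowered. Aldh1l1, a folate enzyme that forms NADPH, was lowered by a shift of -0.78 (adjusted p = 0.0222, limma). Nnt, the mitochondrial transhydrogenase, differed by -0.80 after flagellin and -0.40 after PBS (adjusted p = 0.0549, limma), and Nadk, which makes NADP, by -0.74 and -0.29 (adjusted p = 0.0874, limma). The mitochondrial counterpart of Idh1, Idh2, differed by -0.09 and 0.08. Aldh1l2, the mitochondrial folate enzyme, differed by 0.14 after flagellin and -0.26 after PBS. Of 9 other haem and iron genes 7 were lower in both pairs, against 47 percent of all genes tested, and none passed. Among them Slc40a1, the iron exporter, differed by -0.89 after flagellin and -0.13 after PBS. The ATF4 stress response shares Slc7a11 and Trib3 with the members. Of 15 further genes of that response 5 were lower in both pairs, against 47 percent of all genes tested. None of the 15 was past 1.5-fold in a pair of arrays and none passed the test.

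Cell type markers moved between the genotypes too, and fewer cells of a type cannot be told apart from less RNA per cell in these bulk samples. For the counts that follow, 47 percent of all genes tested were lower in both pairs, and 32.8 percent of all genes with no filter. The test lowered 1.98 percent of all genes. All 9 markers of basal and squamous epithelium were lower in both pairs and 6 passed the test. Their mean log2 level was 6.47 and 7.01 in the flagellin and PBS arrays labelled Duox2-/-, against 8.45 and 7.78 in wild type. Of 9 ciliated cell markers 8 were lower in both pairs and none passed, with a mean level of 7.63 and 7.86 in the arrays labelled Duox2-/-, against 7.93 and 8.17 in wild type. Of 11 monocyte and macrophage markers 9 were lower in both pairs and 2 passed, with 6.64 and 6.79 in the arrays labelled Duox2-/-, against 7.41 and 6.98 in wild type. The median difference of these 11 was -0.57 after flagellin and -0.09 after PBS, where 2 of them were above 0. Secretory and respiratory markers were lower in both pairs in 6 of 9, and their median difference was -0.29 after flagellin and -0.23 after PBS. The part of these cell types in the members' difference was not tested.

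The other marker lists differed in direction. Of the sustentacular cells, which hold many detoxifying enzymes in olfactory mucosa, 5 of 8 markers were matched. Their median differed by 0.01 after flagellin and by -0.25 after PBS. Olfactory neuron markers differed by medians of 0.16 after flagellin and -0.06 after PBS, neutrophil markers by -0.52 and 0.45, skeletal muscle by -0.66 and 2.57, fibroblasts by -0.32 and 0.41 and red cells, with 4 of 8 matched, by 0.11 and 0.88. Endothelial markers differed by -0.65 and -0.19, with 4 of 7 lower in both pairs, against 47 percent of all genes tested. Gland markers had medians of 1.38 after flagellin and 0.81 after PBS, with 2 and 4 of the 10 below 0. Of the 10, 6 were higher in both pairs, against 22.5 percent of all genes tested. The test raised 5 of them, where 2.39 percent of all genes were raised. Tooth markers had medians of 0.69 and 2.56, with 5 of 6 higher in both pairs and 3 raised by the test.

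Comparing flagellin with PBS asks whether the bacterial protein engaged this defence within 4 h. The members spread to both sides of 0. Their median log2 difference, flagellin minus PBS, was -0.03 in the arrays labelled Duox2-/- and 0.00107 in wild type, against -0.07 and -0.00178 over all genes tested. Under cyclic loess the members' median in the arrays labelled Duox2-/- was 0.08, with all genes at 0.01, so its sign depends on the scaling. In the arrays labelled Duox2-/- 18 of 32 were below 0, against 62.2 percent of all genes, and 14 above 0, against 37.8 percent. In wild type 15 were below 0, against 50.4 percent, and 17 above 0, against 49.5 percent. Me1 alone was at least 1.5-fold lower in the arrays labelled Duox2-/-, against 3.13 percent of all genes, and none was 1.5-fold higher, against 0.994 percent. None was past 2-fold there, against 0.176 percent of all genes higher and 0.505 percent lower. No member passed the additive fit for flagellin, where 0.241 percent of all genes were raised and 0.0401 percent lowered. In limma 3 members (Slc7a11, Cat and Aox1) had an unadjusted p under 0.05, as did 6.45 percent of all genes, 3.63 percent being lower, and the lowest adjusted p was 0.290. With a prior variance trend the lowest was 0.0552. Under cyclic loess, and after quantile normalization, 4 members had an unadjusted p under 0.05.

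Slc7a11 was the 1 member past 2-fold. In wild type Slc7a11 had a log2 value of 8.81 after flagellin and 7.80 after PBS, a difference of 1.02, where 0.922 percent of all genes were at least 2-fold higher. At 1.5-fold it was again the 1 member higher, against 2.36 percent of all genes. No member was lower at either size, against 0.0561 percent of all genes at 2-fold and 0.569 percent at 1.5-fold. With the arrays centred on their medians the difference was 0.99, just under 2-fold. In the arrays labelled Duox2-/- it had 7.62 after flagellin and 7.27 after PBS, a difference of 0.35. Flagellin was the higher array in both genotypes, and the common shift was 0.69 ± 0.17 (SE, adjusted p = 0.290, limma). Txnrd1, with 0.20 in the arrays labelled Duox2-/- and 0.31 in wild type, and Hmox1, with 0.05 and 0.32, also leaned up in both. Cat leaned down in both, by -0.54 in the arrays labelled Duox2-/- and -0.32 in wild type, as did Aox1 by -0.35 and -0.32. None of these 4 passed the test.

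**Figure D4:**
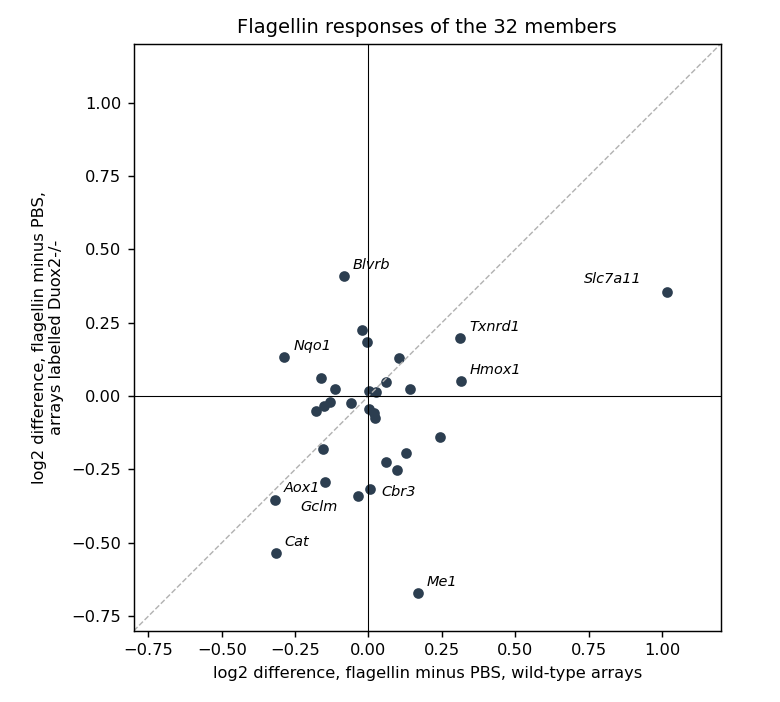
Log2 difference, flagellin minus PBS, of each of the 32 members in the arrays labelled Duox2-/- (vertical) and in the wild-type arrays (horizontal); each point is 1 gene, with 1 array per group, and the dashed line marks equal responses. Slc7a11 lies far right, at 0.35 in the arrays labelled Duox2-/- and 1.02 in wild type, and Me1 lies lowest at -0.67 in the arrays labelled Duox2-/-.

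The difference between the responses, Duox2-/- minus wild type, had a median of -0.04 over the members and -0.07 over all genes tested, and under cyclic loess 0.05 and 0.00592. In the deposited values it was below 0 for 20 members, against 59.9 percent of all genes, and above 0 for 12, against 40.1 percent. The responses had opposite signs in 15 of 32 members and in 48.2 percent of all genes. It was past 2-fold for no member, against 0.136 percent of all genes above and 1.44 percent below 0. At 1.5-fold Slc7a11 (-0.66) and Me1 (-0.84) passed below 0, against 5.83 percent of all genes, and none above 0, against 1.26 percent. The 5 glutathione supply genes all had a negative difference, from -0.66 for Slc7a11 to -0.12 for Gsr, but Gsr turned to 0.00225 under cyclic loess. All 5 enzymes of NADPH supply were below 0 in the arrays labelled Duox2-/-, from -0.67 for Me1 to -0.03 for Taldo1, and 2 of 5 in wild type. Taldo1 and Idh1 turned above 0 in the arrays labelled Duox2-/- under cyclic loess and quantile normalization. Blvrb (0.49) and Nqo1 (0.42) had the largest positive differences. The additive fit takes this difference as its error, so it was not tested.

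Markers of several cell types moved with the flagellin responses. Skeletal muscle markers had a median response of -2.11 in the arrays labelled Duox2-/- and 1.13 in wild type, basal and squamous markers -0.45 and 0.28, fibroblast markers -0.48 and 0.26 and endothelial markers -0.64 and -0.01. Neutrophil markers had 0.23 in the arrays labelled Duox2-/- and 1.14 in wild type. Monocyte and macrophage markers had -0.38 and 0.35 in the same arrays. The member Slc7a11, which myeloid cells also express, had 0.35 and 1.02. The part of these cell types in the members' responses was not tested.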

How the data were processed

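The deposited values are log2 intensities, judged from a range of 1.43 to 13.7. Per the submitters' processing notes the authors used RMA and Affymetrix Expression Console 1.1, with no order or setting named. RMA corrects background, equalises the arrays and summarises probe sets. The build behind the probe sets is unknown here.

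Of 35556 probe sets 21789 were paired with 1 gene, 1621 with several and 12146 with no listed gene. Of 999 genes with several probe sets the brightest one by its 4-array mean was kept. Genes were tested if their highest value reached 6.52, the median of all values. Differences of log2 values have no p-value, since each group has 1 array. The additive model used limma 3.58.1 in R 4.3.3 (lmFit, eBayes, Benjamini-Hochberg, threshold 0.05) and was tested on simulated data. Alternatives were centring, cyclic loess, quantile normalization, mean of probe sets, no filter, only bright members, a prior variance trend and a fold of 1.5. Other work used Python 3.11.15 and pandas 2.3.3. The rule named every member and, of 5 pathway lists (74 of 78 genes matched), 8 genes by name (Maff, Mafg, Mafk, Bach1, Cul3, Nfe2l1, Idh2, Nnt) and up to 8 a list at least 1.5-fold apart in a pairwise comparison. Of 13 marker lists 109 of 116 genes were matched. Members and lists were chosen with earlier results of these data known. Promoter sequences are from RefSeq.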

Additional observations from a re-analysis of the deposited data

Results flagged for a closer look

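Me1, the cytosolic malic enzyme, had flagellin responses of opposite sign in the 2 genotypes, -0.67 in the arrays labelled Duox2-/- and 0.17 in wild type, a difference of -0.84 on the log2 scale that was not tested. Its second probe set had responses of -0.77 in the arrays labelled Duox2-/- and 0.17 in wild type, a difference of -0.94. Of the 32 members 15 had responses of opposite sign, against 48.2 percent of all genes tested, and Me1 was the one whose responses were also at least 1.5-fold apart. Over all genes the responses were at least 1.5-fold apart below 0 in 5.83 percent and above 0 in 1.26 percent. The share of all genes that meet both rules was not computed, so whether Me1 stands out by them cannot be told.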

How the results depend on the processing

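No paired analysis was possible because each group has 1 array and the labels give no replicate numbers. The median difference of the members in the genotype pairs ran from -0.47 to -0.24 after flagellin and from -0.43 to -0.31 after PBS. The number of members past 2-fold was 2 after flagellin between the genotypes, both lower, against 1.65 percent of all genes. A threshold of 1.5-fold gave 10 there, 4 between the genotypes after PBS, 1 for flagellin in the arrays labelled Duox2-/- and 2 for the difference between responses. All were below 0, against 6.54, 2, 3.13 and 5.83 percent of all genes in that order. Centring the arrays left 0 in place of 1 for flagellin in wild type, since Slc7a11 sat at the threshold. In the additive fit 4 members had a genotype shift, against 0 after cyclic loess, 1 after quantile normalization, 8 with no filter on low values and 10 with a prior variance trend. Over all genes the genotype shift raised 298 and lowered 247, against 9 and 8 after cyclic loess, 147 and 135 after quantile normalization, 62 and 125 after centring, 1402 and 477 with no filter and 313 and 608 with the trend; the cause was not tested. The count of members lower in both pairs, an alternative set chosen after seeing the data, ran from 26 to 31. The share of all genes moved with it, from 36.2 percent under cyclic loess to 60.9 percent with centred arrays. Leaving out Cbr3, also chosen after seeing the data, left 3 of 31 members called for genotype and 1 at least 2-fold lower after flagellin. At 1.5-fold it left 9 lower after flagellin and 3 after PBS. No array can be left out, since each comparison then loses a group. Values near or under 6.52, such as those of Cbr3, carry less information on differences.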
